A study of Arabidopsis thaliana with 12 samples.

Results

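The nitrate genes described here are 10 loci of Arabidopsis thaliana, chosen by their locus numbers among the 27416 loci of each deposited table, and all 10 had a row in all 12 tables. They are the transporters NRT1.1, NRT1.5, NRT1.8, NRT2.1, NRT2.2 and NRT2.4, the partner protein NRT3.1, the nitrate reductases NIA1 and NIA2, and the nitrite reductase NIR1. The series compared 4 groups of 3 RNA-seq libraries: the aerial part of the psp1 mutant of phosphoserine phosphatase, the aerial part of wild type (WT), psp1 roots and WT roots, all of the Columbia ecotype. Plants of both genotypes stood upright on agar with diluted Murashige and Skoog medium after 4 days at 4 °C, under 16 h of light and 8 h of dark, and were collected as the night ended. The allele of psp1 and the age of the plants are not given in the sources used here, and the labels call the replicates independent biological samples. Genotype and organ are the 2 contrasts that the labels describe. The sample titles also carry a code, HS in every psp1 library and WT in every wild-type library, and the meaning of HS is not given in the sources used here.

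Nitrate enters root cells through transporters of the NRT1 (also called NPF) and NRT2 families, moves to the shoot in the xylem, and is reduced in the cytosol to nitrite by nitrate reductase and then in plastids to ammonium by nitrite reductase. The NRT1 transporters mostly act at high nitrate, NRT1.1 acts over a wide range and also senses nitrate, and the NRT2 transporters take up nitrate at low concentrations. Genes of this pathway are induced by nitrate through NLP transcription factors, and NIA genes also follow light, sugars and the time of day.

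The libraries held between 3627193 and 9590308 estimated counts, and every library labelled psp1 had fewer than every WT library of its organ. Leaf and root markers followed the organ labels. Levels are given in TPM, which is corrected for target length and scaled to a common sum in each library. The summed level of 8 leaf markers in roots was 0.78% to 1.3% of the psp1 aerial mean in psp1 roots and 1.07% to 1.22% of the WT aerial mean in WT roots. The 8 root markers summed to 2155 to 2949 TPM in psp1 roots and 2976 to 3486 TPM in WT roots, and to 163 to 175 TPM in the psp1 and 169 to 200 TPM in the WT aerial part. Of these 8, 4 were at 0 in all 3 aerial libraries labelled psp1 and 1 in those of WT. The mutated gene, PSP1, was higher in the aerial libraries labelled psp1, at 316 ± 79.3 CPM (counts scaled to the total of each library), than in WT, at 62.8 ± 11.8 CPM (SD, n = 3 each). That is a log2 fold change of 2.29 ± 0.28 (SE, edgeR exact test adjusted p = 1.6e-22). In roots PSP1 stood at 127 ± 16.3 CPM in psp1 and 155 ± 13.1 CPM in WT, and the libraries overlapped. It was not called there (exact test adjusted p = 0.0275), nor in 12 of 13 alternatives (adjusted p up to 0.161). The 1 exception was the run without psp1 root library 3, where it was lower and called (log2 fold change -0.52, adjusted p = 0.00189). With the allele not given, no direction of PSP1 RNA follows from the labels, and its level could not check them. Every direction below is that of the libraries as labelled, and psp1 means labelled psp1.

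In roots labelled psp1, the uptake transporters NRT1.1 and NRT2.1, the nitrate reductases NIA1 and NIA2 and the nitrite reductase NIR1 rose, while NRT1.5, which loads nitrate into the xylem, fell. NRT2.1 rose 7.89-fold, NRT1.1 3.18-fold, and NIA2 and NIR1 by 2.15-fold and 2.03-fold. In the aerial part none of the genes that could be tested was called. Of the 10 genes, 8 passed the filter on low counts in roots and 5 in the aerial part. In roots 7 rose and 1 fell at an adjusted p under 0.01 (edgeR exact test), where 17.8% of the 17793 genes tested were called, 8.72% higher and 9.10% lower. In the aerial part 0 of 5 were called, against 2.43% of the 15928 genes tested, 1.53% higher and 0.904% lower. At an unadjusted p under 0.05, 1 of the 5 (NIA1) passed, against 16.6% of all genes tested there. The edgeR quasi-likelihood test and DESeq2 also called 0 of the 5. DESeq2 called only 338 aerial genes in all and the quasi-likelihood test fewer, so these 0 calls add little. One of the 8 in roots, NRT1.8, passed the filter through its psp1 libraries alone, so that its difference was a condition of being tested. The median log2 fold change of the 8 genes was 1.08 in roots and that of the 5 was -0.05 in the aerial part, beside 0.01 over all genes tested in either organ. The 3 libraries of psp1 and the 3 of WT did not overlap in CPM for 8 of 8 genes in roots, against 40.4% of all genes tested. In the aerial part they did not overlap for 1 of 5, NIA1, against 23.2%. At equal depth, the root calls of NRT1.1, NRT1.5, NRT2.1, NIA1, NIA2 and NIR1 were made again. The markers did not move as 1 block in roots. Of 7 root markers tested, IRT1 and PRX72 rose (3.94-fold and 1.55-fold), PYK10 and TIP2;3 fell (1.54-fold and 2.1-fold) and 3 were not called. PYK10 alone averaged 2327 ± 411 TPM in psp1 roots and 3103 ± 262 TPM in WT roots (SD, n = 3 each), which is most of the root marker sum. Of 8 leaf markers, LHCB3 and LHCA1 fell in psp1 roots, and the other 6 overlapped between genotypes and were not called. The part of the markers in the results on nitrate genes was not tested. The RNA is of whole organs, so fewer cells of a type and less RNA per cell cannot be told apart.

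**Figure D1:**
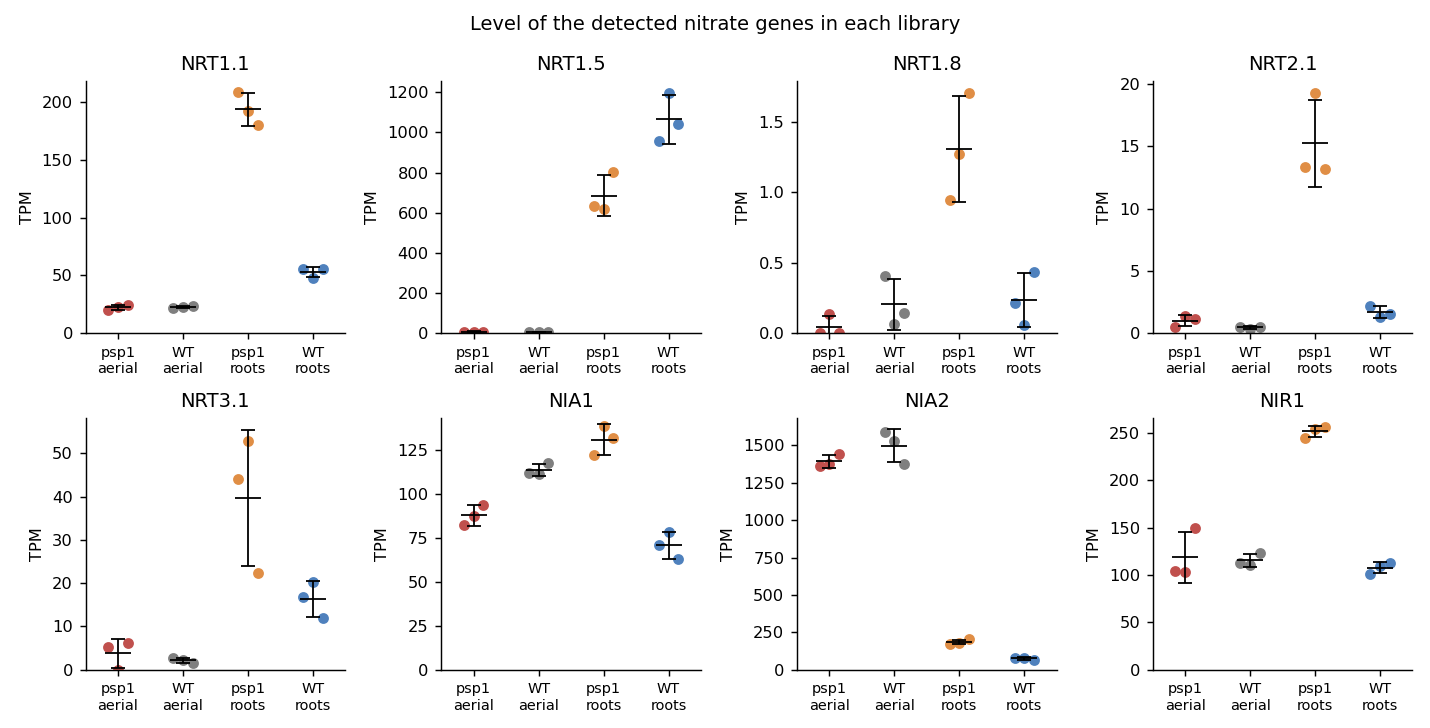
TPM (a level per target length) of the 8 nitrate genes with more than isolated counts, in each of the 3 libraries (points) of the aerial part and the roots of psp1 and WT, with mean and SD (bars). In roots, NRT1.1 lies between 180 and 209 TPM in psp1 and between 47.4 and 55.6 TPM in WT, while NRT1.5 lies lower in psp1 than in WT.

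Among the uptake transporters, NRT1.1 (AT1G12110; TAIR10.1 chromosome 1, 4105223 to 4109601, plus strand, 5 coding exons), the dual-affinity transporter and nitrate sensor also known as CHL1 or NPF6.3, had 209, 192 and 180 TPM in psp1 root libraries 1 to 3, against 55.3, 47.4 and 55.6 TPM in WT root libraries 1 to 3. All psp1 root libraries lay above all WT root libraries, and the range within each genotype was small beside the gap. The log2 fold change was 1.67 ± 0.11 (SE, exact test adjusted p = 1.51e-29). The 3 aerial libraries of psp1 had 20.0, 22.7 and 24.1 TPM and those of WT 21.9, 22.9 and 23.2 TPM, so the groups overlapped and differed by -0.05 ± 0.08 (adjusted p = 0.957). The difference between organs in the effect of psp1 was itself called (1.82 ± 0.14 on the log2 scale, interaction in the edgeR quasi-likelihood model, adjusted p = 1.13e-05). Of the 8 nitrate genes tested for this interaction, 4 were called, each with the higher psp1 effect in roots, where 1.68% of 18759 genes were called, 0.816% higher and 0.864% lower.

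NRT2.1 (AT1G08090; chromosome 1, 2524023 to 2526322, plus strand, 3 coding exons) is the main transporter of the high-affinity uptake system of roots. It had 13.3, 19.3 and 13.1 TPM in psp1 roots, against 2.21, 1.29 and 1.53 TPM in WT roots. These levels rest on 125, 148 and 89 estimated counts in psp1 and 28, 20 and 25 in WT. The lowest psp1 root library was far above the highest of WT, and the rise was 2.98 ± 0.26 (exact test adjusted p = 8.98e-21), the largest log2 fold change of the 8 genes tested in roots. Aerial NRT2.1 had 5, 9 and 7 counts in psp1 and 8, 5 and 6 in WT, under the filter on low counts. Without the filter it differed by 1.04 there (adjusted p = 0.589). The interaction was 2.04 ± 0.47 and was not called (quasi-likelihood test, adjusted p = 0.0679), so the effects in the 2 organs were not shown to differ for NRT2.1.

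NRT2.2 (AT1G08100; chromosome 1, 2527170 to 2529120, minus strand), the neighbour of NRT2.1 with a smaller share of uptake, was at 0 in all 12 libraries. A count of 0 in 78923459 counts allows a level of up to 0.038 CPM over all libraries, as far as counting error goes. The coding sequences of NRT2.1 and NRT2.2 were 91.8% identical over 1409 bases, and 19.82% of the 31-base words of NRT2.2 occurred in NRT2.1, so reads from shared stretches alone could have been given to either gene. Counting both genes as 1 left the root result unchanged at 2.98 (adjusted p = 8.99e-21). NRT2.4 (AT5G60770; chromosome 5, 24444365 to 24447127, plus strand), a transporter of very high affinity that is induced by nitrogen shortage, had 4 counts in psp1 root library 3 and 0 in the other 11 libraries. The limit that 0 counts allow was between 0.313 and 0.827 CPM in a library.

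The promoters of the NRT2 genes are shown because these 3 were the members whose last 250 bases before the annotated start held the letters GAATCT. HRS1 and its relatives of the NIGT1 group, repressors of NRT2 genes in Arabidopsis, are known to bind a motif with these letters. Sequences are from the RefSeq TAIR10.1 assembly, 5′ to 3′ on the strand of the gene, with GAATCT in capitals:
NRT2.1 chr1:2523773-2524022: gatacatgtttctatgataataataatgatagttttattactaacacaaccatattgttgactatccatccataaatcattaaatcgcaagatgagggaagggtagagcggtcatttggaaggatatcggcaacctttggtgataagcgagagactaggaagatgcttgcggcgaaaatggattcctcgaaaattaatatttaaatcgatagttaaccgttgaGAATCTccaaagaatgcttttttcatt
NRT2.2 chr1:2529121-2529370: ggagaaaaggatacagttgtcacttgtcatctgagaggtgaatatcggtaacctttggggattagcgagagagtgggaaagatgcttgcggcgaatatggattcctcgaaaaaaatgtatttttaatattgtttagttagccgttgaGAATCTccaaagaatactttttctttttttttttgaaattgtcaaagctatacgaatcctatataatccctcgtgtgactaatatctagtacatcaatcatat
NRT2.4 chr5:24444115-24444364: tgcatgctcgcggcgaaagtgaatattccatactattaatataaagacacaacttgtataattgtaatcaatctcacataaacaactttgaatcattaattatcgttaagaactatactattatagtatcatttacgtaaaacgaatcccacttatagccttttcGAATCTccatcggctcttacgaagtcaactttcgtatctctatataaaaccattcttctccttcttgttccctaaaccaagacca
The match lay at positions -27 to -22 from the start in NRT2.1, -103 to -98 in NRT2.2 and -85 to -80 in NRT2.4, each on the plus strand of the gene. Searched on both strands, GAATCT occurred in 16.3% of 26709 promoters of this length. The nitrate-responsive cis element that NLP proteins bind, searched by its paired outer letters on both strands, occurred in 0 of the 10 windows and in 8.0% of all promoters. Bases outside these 250 were not searched, so the 0 holds for the windows and not for the genes. Such matches describe letters and not binding. The 3 genes did not share a root level, since NRT2.1 was the only one of them with counts in every root library.

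NRT3.1 (AT5G50200; chromosome 5, 20436180 to 20437815, plus strand), the small membrane protein that NRT2 transporters need for activity, had 44.2, 52.8 and 22.3 TPM in psp1 roots, against 16.7, 20.3 and 12.03 TPM in WT roots. The psp1 libraries were all higher, but psp1 root library 3 lay just above the highest WT library. The rise was 1.07 ± 0.41 (exact test adjusted p = 0.00465). The call ended without psp1 root library 1 or 2 (adjusted p = 0.0433 and 0.0616) or WT root library 1 or 3 (0.0245 and 0.06), at equal depth (0.0187) and in the quasi-likelihood test (0.0185). Its aerial counts were 16, 0 and 12 in psp1 and 13, 10 and 6 in WT, under the filter on low counts. The level of NRT3.1 per unit of NRT2.1, as a ratio of TPM, was 2.58 ± 0.82 in psp1 roots and 10.4 ± 4.64 in WT roots (SD, n = 3 each), without overlap. An exact two-sided permutation test of that ratio gave p = 0.1, the smallest that 3 against 3 libraries allow.

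NRT1.5 and NRT1.8 act on opposite sides of xylem transport. NRT1.5 (AT1G32450; chromosome 1, 11715147 to 11719988, minus strand, 6 coding exons) loads nitrate into the root xylem. It had 635, 620 and 800 TPM in psp1 roots, against 957, 1196 and 1040 TPM in WT roots. The highest psp1 library stayed below the lowest of WT, and the fall was -0.84 ± 0.16 (exact test adjusted p = 1.86e-06). It was the only called member with a lower level in psp1 roots, while its level there was still the highest of the 10 genes. Aerial NRT1.5 stood at 6.22 ± 1.45 TPM in psp1 and 6.05 ± 0.424 TPM in WT (SD, n = 3 each), a difference of 0.02 ± 0.20 (adjusted p = 1). The interaction of -0.77 ± 0.26 was not called (quasi-likelihood test, adjusted p = 0.0712).

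NRT1.8 (AT4G21680; chromosome 4, 11517353 to 11519805, minus strand), which takes nitrate back out of the xylem, was near the limit of detection. It had 10, 11 and 13 counts in psp1 roots, against 3, 1 and 8 in WT roots, or 1.31 ± 0.38 TPM in psp1 roots and 0.234 ± 0.191 TPM in WT roots (SD, n = 3 each). It passed the filter in roots through its psp1 libraries alone, so a higher psp1 level was a condition of being tested. With that limit, the libraries did not overlap in CPM, and the log2 fold change was 2.19 ± 0.45 (exact test adjusted p = 0.00537). That call was lost in the quasi-likelihood test (adjusted p = 0.0383) and in DESeq2 (0.0372), with no filter on low counts (0.0253), and without WT root library 1 or 2 (0.0393 and 0.0866) or any psp1 root library (0.0142, 0.0209 and 0.026 for libraries 1 to 3). The aerial libraries held 1 count of NRT1.8 in psp1 and 10 in WT, summed over 3 libraries each. In the annotation NRT1.5 and NRT1.8 each overlap a gene of the opposite strand, AT1G32440 and AT4G21670, but 0 coding bases are shared, and the targets hold coding sequence.

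The uptake transporter NRT1.1 stood higher relative to the xylem loader NRT1.5 in each psp1 root library. The ratio of NRT1.1 to NRT1.5 in TPM was 0.288 ± 0.055 in psp1 roots and 0.05 ± 0.009 in WT roots (SD, n = 3 each), and the libraries did not overlap. The aerial ratio was 3.75 ± 1.1 in psp1 and 3.76 ± 0.342 in WT. The exact two-sided permutation p was 0.1 in roots, the smallest possible with 3 against 3, and 1 in the aerial part. Every psp1 root library lay above every WT root library for NRT1.1 and below for NRT1.5. The root ratio therefore had to separate, and its p adds nothing to the results of the single genes.

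**Figure D2:**
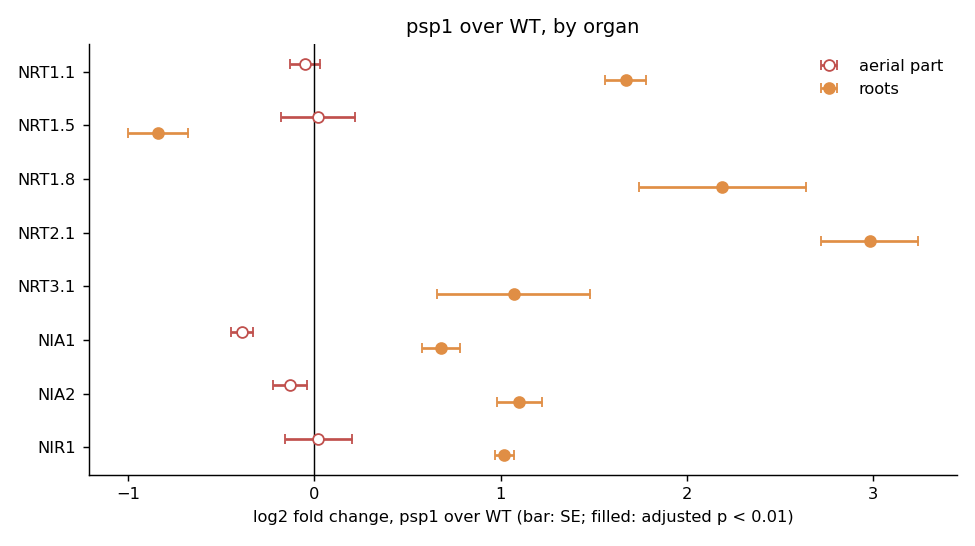
Log2 fold change of psp1 over WT in the aerial part and in roots for the 8 genes that passed the filter in at least 1 organ (points, with SE as bars), filled where the adjusted p was under 0.01. All 8 root values are filled and NRT1.5 alone is negative there, while the 5 aerial values lie between -0.39 and 0.02 and are open. NRT1.8 passed the filter in roots through its psp1 libraries alone.

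The nitrate reductases catalyse the step that commits nitrate to assimilation, and NIA2 accounts for most of the activity in Arabidopsis shoots. NIA1 (AT1G77760; chromosome 1, 29235721 to 29239484, minus strand) had 122, 139 and 132 TPM in psp1 roots, against 71.1, 78.4 and 62.8 TPM in WT roots. NIA2 (AT1G37130; chromosome 1, 14158452 to 14161938, plus strand) had 173, 182 and 202 TPM in psp1 roots, against 80.3, 78.3 and 66.8 TPM in WT roots. Both genes were higher in every psp1 root library than in every WT root library. NIA1 rose by 0.68 ± 0.10 (exact test adjusted p = 6.83e-06) and NIA2 by 1.1 ± 0.12 (adjusted p = 3.97e-13). The coding sequences of NIA1 and NIA2 shared 0 words of 31 bases, so no stretch of that length fits both genes.

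The aerial libraries showed no such rise. NIA1 had 82.0, 87.6 and 93.8 TPM in the psp1 aerial part and 112, 111 and 117 TPM in that of WT. The psp1 libraries were all lower, by -0.39 ± 0.06, but the difference was not called (adjusted p = 0.0893). NIA2 had 1361, 1376 and 1445 TPM in the psp1 aerial part and 1587, 1533 and 1375 TPM in WT, overlapping groups that differed by -0.13 ± 0.09 (adjusted p = 0.76). The interaction was called for both, at 1.17 ± 0.11 for NIA1 and 1.33 ± 0.14 for NIA2 (quasi-likelihood test, adjusted p = 0.000405 and 0.000283).

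The sum of NIA1 and NIA2 was 317 ± 20.1 TPM in psp1 roots and 146 ± 14.4 TPM in WT roots, and 1482 ± 50.8 and 1612 ± 107 TPM in the psp1 and WT aerial part (SD, n = 3 each). NIA2 made up 58.7%, 56.7% and 60.5% of that sum in psp1 roots, against 53.0%, 49.98% and 51.5% in WT roots. The root ranges did not overlap, and the mean difference was 7.13 percentage points (exact two-sided permutation p = 0.1, the smallest possible). Aerial NIA2 made up 94.1% ± 0.213 in psp1 and 92.9% ± 0.693 in WT, also without overlap. The difference was 1.16 points (exact two-sided permutation p = 0.1, again the smallest possible). The 8 leaf markers summed to 254 to 419 TPM in psp1 roots and 420 to 477 TPM in WT roots, a difference mainly in LHCB3 (70.7 ± 9.01 TPM in psp1 roots and 174 ± 11.7 TPM in WT roots) and LHCA1. The part of leaf RNA in the share of NIA2 was not tested.

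NIR1 (AT2G15620; chromosome 2, 6810395 to 6812941, plus strand, 4 coding exons), the plastid enzyme that reduces nitrite to ammonium with electrons from ferredoxin, had 245, 254 and 256 TPM in psp1 roots, against 101, 110 and 112 TPM in WT roots. Its psp1 root libraries differed among themselves by less than those of any other called member relative to their mean, and none came near WT. The rise was 1.02 ± 0.05 (exact test adjusted p = 1.12e-13). Its aerial levels were 104, 103 and 150 TPM in psp1 and 113, 110 and 123 TPM in WT, with psp1 aerial library 3 the highest of all 6, and the difference was 0.02 ± 0.18 (adjusted p = 0.994). The interaction was called (1.1 ± 0.19, quasi-likelihood test, adjusted p = 0.00238), but the call was lost whichever of the 6 root libraries was left out (adjusted p between 0.0115 and 0.0208).

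No difference between genotypes was shown in the balance of nitrite to nitrate reductase. The TPM of NIR1 per TPM of NIA1 plus NIA2 was 0.796 ± 0.032 in psp1 roots and 0.744 ± 0.106 in WT roots (exact two-sided permutation p = 0.5), and 0.08 ± 0.015 and 0.072 ± 0.009 in the psp1 and WT aerial part (SD, n = 3 each). The ranges overlapped in both organs.

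**Figure D3:**
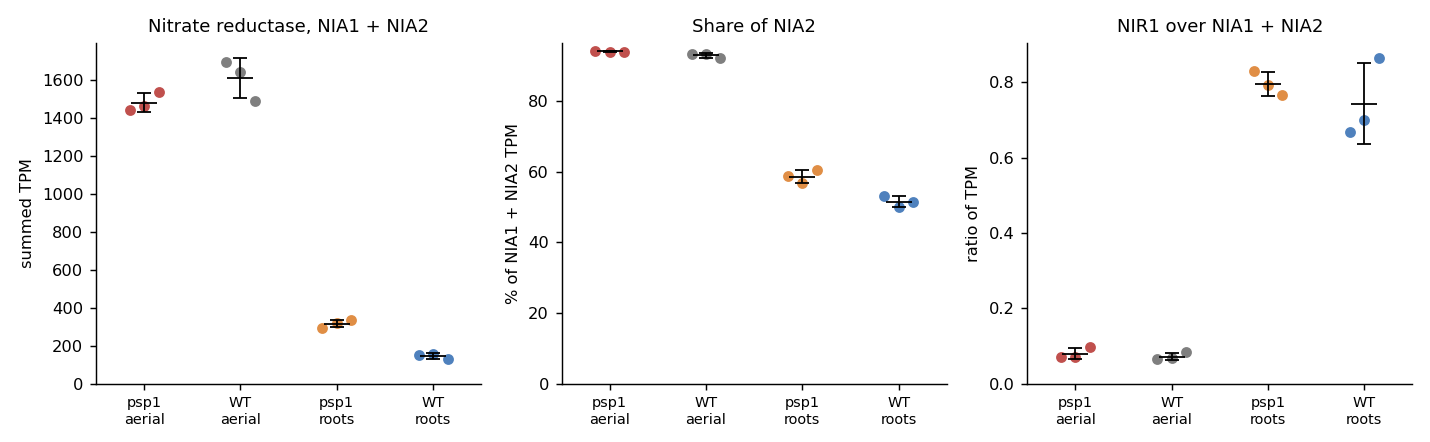
Summed TPM of NIA1 and NIA2 (left), the percentage of NIA2 in that sum (middle) and the TPM ratio of NIR1 to that sum (right) in each library (points), with mean and SD (bars). NIA2 is over 90% of the sum in the aerial part and between 49.98% and 60.5% in roots, where psp1 lies above WT in the sum and in the share but overlaps it in the ratio. In the aerial part psp1 also lies above WT in the share, but overlaps it in the sum and in the ratio.

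Between organs, NRT1.1, NRT1.5, NRT2.1 and NRT3.1 were higher in roots and the nitrate reductase NIA2 was lower there, in both genotypes. The transporters NRT1.8, NRT2.2 and NRT2.4 did not pass the filter in these comparisons. Without it, NRT1.8 was at 4.02 in psp1 roots against the psp1 aerial part (log2 fold change, exact test adjusted p = 0.00345) and at -0.32 in WT (adjusted p = 0.94). Of 7 genes tested, 4 rose and 1 fell in psp1 roots against the psp1 aerial part, where 49.7% of 17344 genes were called (25.2% higher and 24.5% lower). In WT roots against the WT aerial part 4 rose and 3 fell, with 64.4% of 18202 genes called (33.6% higher and 30.8% lower), so a call alone says little here. The member with the widest gap was NRT1.5, at 685 ± 100 TPM in psp1 roots and 6.22 ± 1.45 TPM in the psp1 aerial part (SD, n = 3 each), 68.5-fold higher in the normalized counts. In WT it was 123-fold higher in roots, at 1064 ± 121 TPM against 6.05 ± 0.424 TPM. NRT2.1 was 9.87-fold higher in psp1 roots than in the psp1 aerial part (exact test adjusted p = 2.28e-13). There it was over the filter in 3 root libraries and 1 aerial library, so it needed its root libraries to be tested. In WT it was 2.54-fold higher in roots (adjusted p = 0.00292), a call lost in DESeq2 and the quasi-likelihood test (0.0285 and 0.0101) and without WT root library 1 or WT aerial library 1, 2 or 3 (0.0266, 0.0182, 0.0455 and 0.0183), and in that comparison it passed the filter through its root libraries alone. NRT3.1 was 6.47-fold and 5.11-fold higher in roots of psp1 and WT (exact test adjusted p = 4.45e-05 and 2.51e-11). In each genotype it was over the filter in 3 root and 2 aerial libraries, so it too needed its root libraries to be tested. NRT1.1 was 5.46-fold and 1.63-fold higher in roots of psp1 and WT (adjusted p = 1.75e-39 and 1.02e-07).

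NIA2 was 12-fold lower in psp1 roots than in the psp1 aerial part (-3.58 ± 0.09) and 28.5-fold lower in WT roots than in the WT aerial part (-4.83 ± 0.12; exact test adjusted p = 7.26e-83 and 6.99e-213). NIA1 differed by -0.10 ± 0.07 between the organs of psp1 (adjusted p = 0.603) and was lower in WT roots, by -1.20 ± 0.09 (adjusted p = 1.76e-22). NIR1 differed by 0.41 ± 0.18 between psp1 roots and aerial part (adjusted p = 0.0573) and by -0.61 ± 0.05 in WT (adjusted p = 1.86e-07). These organ differences depend on the scaling. With library totals in place of TMM factors, the median log2 fold change of all genes was 0.603 in psp1 and 0.543 in WT, against 0.043 and 0.032. NIA1 then stood at 0.46 in psp1, in the opposite direction and called (adjusted p = 0.00649). NIR1 stood at 0.97 in psp1, also called (adjusted p = 1.02e-06), and at -0.10 in WT, no longer called (adjusted p = 0.413). The psp1 comparison between organs of NIR1 was also called without psp1 aerial library 3 (0.64, adjusted p = 0.000516). The directions of NRT1.1, NRT1.5, NRT2.1, NRT3.1 and NIA2 were the same under every scaling run.

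**Figure D4:**
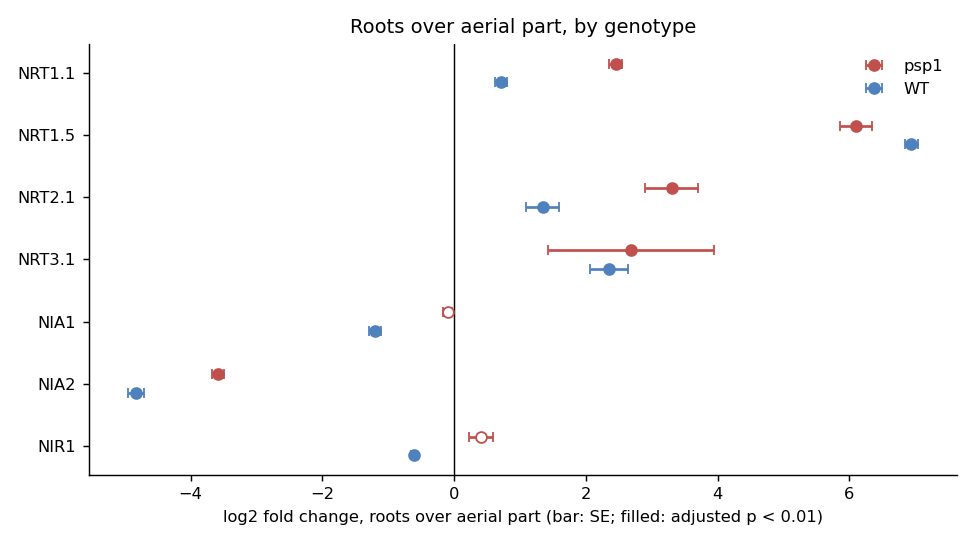
Log2 fold change of roots over the aerial part in psp1 and in WT for the 7 genes tested (points, with SE as bars), filled where the adjusted p was under 0.01. NRT1.1, NRT1.5, NRT2.1 and NRT3.1 lie to the right of 0 in both genotypes and NIA2 to the left, and NIA1 and NIR1 are open in psp1. NRT2.1 and NRT3.1 needed their root libraries to pass the filter in both genotypes.

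The order of the levels per target length differed between organs and genotypes. In psp1 roots NRT1.5 came first, then NIR1, then NRT1.1 and NIA2, whose ranges overlapped, then NIA1, NRT3.1, NRT2.1 and NRT1.8. In WT roots NRT1.5 came first, then NIR1, then NIA2 and NIA1, which overlapped, then NRT1.1, NRT3.1, NRT2.1 and NRT1.8. NRT1.1 thus stood among the reductases in psp1 roots and below them in WT roots. In the psp1 aerial part NIA2 was followed by NIR1, NIA1, NRT1.1 and NRT1.5, and the ranges of these 5 did not overlap. In the WT aerial part the order was the same, but NIR1 and NIA1 overlapped. NRT3.1, NRT2.1 and NRT1.8 came next in the aerial part of both genotypes, at most 6.10 TPM in any library, though NRT3.1 overlapped NRT1.5 in psp1. NRT2.2 and NRT2.4 were at 0 in every aerial library.

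Of 69 other genes of nitrate transport, signalling and reduction, 57 were tested in roots, 11 rose and 8 fell, with a median log2 fold change of 0.04 beside 0.01 over all genes. The counts of this list and of its parts stand beside 8.72% of all genes higher and 9.10% lower in roots. Of 55 tested in the aerial part, 1 was higher and 2 were lower, beside 2.43% of all genes called. Of the 15 genes of reducing power and cofactors in roots, all tested, 4 rose and 0 fell (median 0.54), where 8.72% of all genes rose. RFNR2 (AT1G30510), a root-type ferredoxin-NADP reductase that charges ferredoxin for nitrite reductase, had 223, 217 and 194 TPM in psp1 roots, against 77.6, 78.2 and 89.9 TPM in WT roots. It rose by 1.16 ± 0.09 (exact test adjusted p = 2.34e-15). G6PD3 (AT1G24280), a plastid glucose-6-phosphate dehydrogenase that makes NADPH in roots, had 47.5, 48.5 and 57.9 TPM in psp1 roots, against 20.4, 22.9 and 21.5 TPM in WT roots (1.04 ± 0.12, adjusted p = 1.08e-09). The other 2 that rose, named after their values were seen, were UPM1 of the synthesis of sirohaem, the cofactor of nitrite reductase (0.83 ± 0.18, adjusted p = 9.16e-06), and the haemoglobin HB1 (1.27 ± 0.40, adjusted p = 0.00126). HB1 was not called in the quasi-likelihood test or at equal depth (adjusted p = 0.0102 and 0.011), nor without psp1 root library 1 or 2 or WT root library 2 or 3 (adjusted p = 0.0328, 0.0149, 0.0123 and 0.025).

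Of 22 other transporters and channels, 16 were tested in roots, 2 rose and 5 fell (median -0.33), where 8.72% of all genes rose and 9.10% fell. Among the 5 were NPF2.3, NRT1.4 and NRT1.11, named for roots after their values were seen. Their root calls were lost in 10, 6 and 4 of 13 alternatives. Of the 2 that rose, NRT2.7, also named after its values were seen, rose by 1.48 ± 0.41 (exact test adjusted p = 0.000105). It kept its call in 13 of 13 alternatives. CLCB (AT3G27170), a vacuolar nitrate-proton exchanger, had 26.3, 25.3 and 25.7 TPM in psp1 roots, against 9.78, 7.22 and 8.42 TPM in WT roots, and rose by 1.4 ± 0.14 (exact test adjusted p = 2.31e-13). Its relative CLCA (AT5G40890), which stores nitrate in the vacuole, went the other way, with 69.9, 75.6 and 67.6 TPM in psp1 roots and 92.9, 108 and 117 TPM in WT roots (-0.78 ± 0.09, adjusted p = 2.42e-07). SLAH3 (AT5G24030), an anion channel that releases nitrate, had 27.1, 30.5 and 28.9 TPM in psp1 roots and 48.5, 43.8 and 50.02 TPM in WT roots (-0.93 ± 0.08, adjusted p = 5.34e-09). The transporter NRT1.11 (AT1G52190), which moves nitrate from xylem to phloem in leaves, fell by 0.59 on the log2 scale in the aerial part (SE 0.09), with 35.0, 34.8 and 31.4 TPM in psp1 and 52.0, 44.7 and 53.4 TPM in WT (exact test adjusted p = 0.00665). That call was lost in the quasi-likelihood test (0.0505), with library totals (0.0135), at equal depth (0.0362) and without any 1 of psp1 aerial library 2 or 3 or WT aerial library 1, 2 or 3 (0.011, 0.0185, 0.15, 0.0274 and 0.103).

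Of 22 regulators 17 were tested in roots, 2 rose and 3 fell (median 0.13), where 17.8% of all genes were called. LBD39 (AT4G37540), a nitrate-induced repressor of nitrate response genes, had 87.7, 72.1 and 81.7 TPM in psp1 roots, against 316, 220 and 244 TPM in WT roots, and fell by 1.89 on the log2 scale (SE 0.20, exact test adjusted p = 2.33e-24). Its relatives in the same group of repressors, named after their values were seen, did not fall. LBD38 (AT3G49940) rose, with 60.3, 63.4 and 66.1 TPM in psp1 roots and 29.0, 39.98 and 24.2 TPM in WT roots (0.82 ± 0.21, adjusted p = 0.000704), a call lost without WT root library 1 or 3 (0.0115 and 0.0177). LBD37 differed by 0.54 ± 0.34 and was not called (adjusted p = 0.18). BT2 (AT3G48360) and BT1 (AT5G63160), scaffold proteins that restrain nitrate uptake and NRT2 genes in Arabidopsis, fell in roots. BT2 had 234, 321 and 216 TPM in psp1 roots and 455, 415 and 503 TPM in WT roots (-1.05 ± 0.17, adjusted p = 1.82e-09). BT1 had 89.3, 94.4 and 90.9 TPM in psp1 roots and 136, 151 and 134 TPM in WT roots (-0.82 ± 0.04, adjusted p = 1.15e-08). Aerial BT1 fell by 0.62 on the log2 scale (SE 0.10, exact test adjusted p = 0.00382), and HY5 (AT5G11260), a light-response factor that also moves from shoot to root and acts on NRT2.1, rose by 0.79 ± 0.06 (adjusted p = 0.000292). Both aerial calls were lost in the quasi-likelihood test (0.0402 and 0.023) and without WT aerial library 1 or 3 (0.0373 and 0.0419 for BT1, 0.0308 and 0.0249 for HY5), and that of BT1 also without WT aerial library 2 or psp1 aerial library 2 (0.0873 and 0.0304).

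Of the NIGT1 repressors, HRS1 differed by 0.27 ± 0.10, HHO2 by 0.26 ± 0.07 and HHO3 by -0.01 ± 0.09 in roots, none called (adjusted p = 0.222, 0.25 and 0.992). HHO1 rose by 1.01 ± 0.35 (adjusted p = 0.00768), a call lost in the quasi-likelihood test (0.0252) and in DESeq2 (0.0117), and without psp1 root library 2 or 3 or WT root library 2 or 3 (0.0306, 0.03, 0.0328 and 0.0782). These 4 were named after their values were seen. Of 10 signalling genes 9 were tested in roots, 3 rose and 0 fell (median 0.14), where 8.72% of all genes rose. The 3, named after their values were seen, were CBL1, CPK10 and CEPR1. CBL1 rose by 1.5 ± 0.20 and CPK10 by 0.86 ± 0.12 (exact test adjusted p = 1.21e-06 and 1.05e-05), and both kept their calls in 13 of 13 alternatives. CEPR1 lost its call in 10 of 13 alternatives (main value 0.42, exact test adjusted p = 0.00958).

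**Figure D5:**
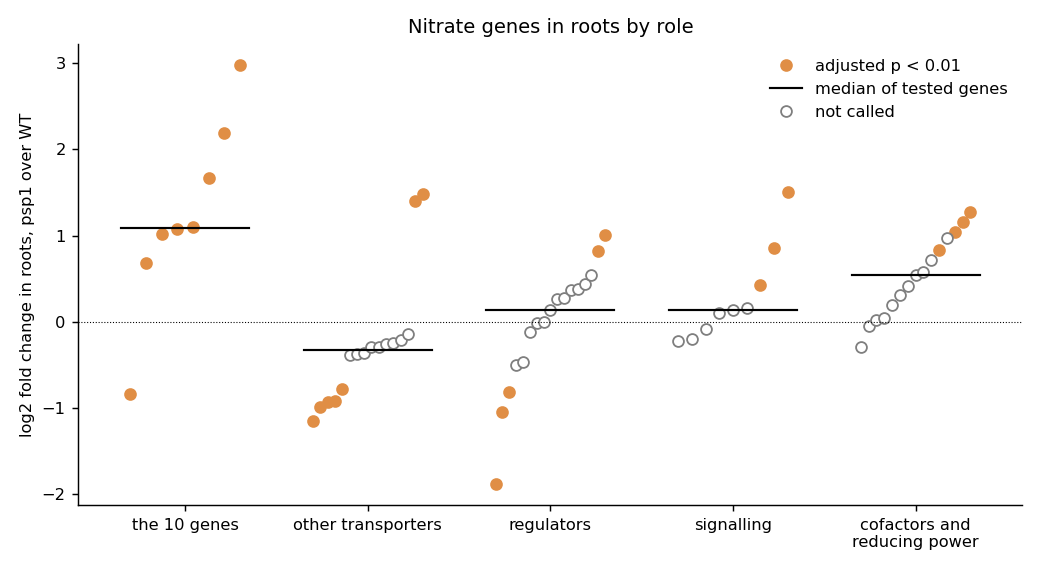
Log2 fold change in roots, psp1 over WT, of the tested genes among the 10 nitrate genes and of 4 lists of other nitrate genes (points, filled where the adjusted p was under 0.01), with the median of each list as a line. The medians are 1.08 for the nitrate genes described here, -0.33 for the other transporters, 0.13 for regulators, 0.14 for signalling and 0.54 for cofactors and reducing power.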

How the data were processed

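Per the labels' protocols, single reads of 75 nucleotides from poly(A)-enriched RNA were assigned by the authors to the TAIR10 transcriptome with kallisto 0.43.0. The deposited tables give estimated counts per target, 3.62% to 6.18% of them not whole at a tolerance of 0.001, and TPM, deposited as levels corrected for target length. Of target lengths, 99.99% were multiples of 3, so they are coding lengths. Reads carry no stated strand.

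Estimated counts were rounded. Each comparison used the 6 libraries of its 2 groups and, after the labels' stated mode, edgeR 4.0.16 (R 4.3.3) with the default filter, TMM factors, the exact test and Benjamini-Hochberg adjustment over all genes, called at 0.01. The interaction used the quasi-likelihood test over 12 libraries. SEs come from the spread of log2 CPM with a prior count of 2. TPM gave levels and ratios and was not tested across genes. DESeq2 1.42.0 and the other alternatives are given at the end. The code was tested on simulated data.

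Coordinates and promoters come from TAIR10.1, in which the coding lengths of all 10 genes equal the target lengths. Of 69 other listed genes, 1 (NRT3.2) is not analysed here. The genes and lists were chosen with earlier results of these data known. Beside the 10 genes, up to 8 listed genes per organ were named by smallest p; others are said to be named after their values were seen. The limits given for counts of 0 cover counting error only, while SDs and SEs are spreads between libraries.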

Additional observations from a re-analysis of the deposited data

Results flagged for a closer look

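For 4 of the 8 nitrate genes tested, the effect of psp1 differed between roots and the aerial part by a test of the difference itself (edgeR quasi-likelihood interaction, adjusted p under 0.01), where 1.68% of 18759 genes were called. The log2 difference of the effect, roots minus aerial part, was 1.82 for NRT1.1, 1.17 for NIA1, 1.33 for NIA2 and 1.1 for NIR1. The calls of NRT1.1, NIA1 and NIA2 held under every alternative run. That of NIR1 was lost in 6 of 18, with any 1 root library left out (quasi-likelihood test, adjusted p up to 0.0208). All 3 psp1 libraries lay above all 3 WT libraries in roots for each of these 4 genes, where 40.4% of all genes tested did not overlap. For NIA1 all 3 lay below in the aerial part, where 23.2% of all genes tested did not overlap. That aerial difference was not called (exact test adjusted p = 0.0893).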

How the results depend on the processing

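Over the 10 genes, 35 log2 fold changes were recomputed 479 times in all, of which 436 kept their direction and their side of the threshold, 30 lost a call, 2 gained one and 11 changed sign. In roots NRT1.1, NRT1.5, NRT2.1, NIA1, NIA2 and NIR1 were called in psp1 against WT under every alternative run. The calls of NRT1.8 and NRT3.1 were not, with adjusted p up to 0.0866 and 0.0616. The values that changed sign follow. In the aerial part NRT1.5 was -0.20 at equal depth and -0.001 with a replicate block, and NIR1 was -0.0052 with that block. Between the organs of psp1, NIA1 was 0.46 with library totals. Leaving out 1 library each, the aerial values ran from -0.13 to 0.05 for NRT1.1, from -0.12 to 0.16 for NRT1.5 and from -0.20 to 0.13 for NIR1, and the interaction of NRT3.1 from -0.12 to 0.76. The count of genes called in the aerial part was 387, but 31 in the quasi-likelihood test, 21 with a replicate block and 112 to 710 without 1 library (710 without psp1 aerial library 1, and 112, 140 and 128 without WT aerial library 1, 2 and 3). In roots it was 3172, or 1837 with the block. The interaction count was 315, or 828 in DESeq2 and 136 to 374 without 1 library (170, 136 and 194 without WT aerial library 1, 2 and 3). The cause of these shifts was not tested. The share of higher calls in roots was 48.9%, or 64.4% with library totals, which moved the median of all genes to 0.122. In the comparisons between organs it was 50.6% in psp1 and 52.1% in WT, or 71.5% and 71.3% with library totals. Same-numbered libraries of psp1 and WT had deviations correlated between -0.049 and 0.047, and those of differing number between -0.08 and 0.098. No pairing by number was seen, but deviations from means of 3 libraries cannot exclude one. Between the organs of WT the correlations of same-numbered libraries were 0.027, 0.111 and 0.15, not all over 0.1. Each library there still correlated best with its own number, which is a hint from the data and not from the design. The block ended the calls of NRT1.8 and NRT3.1 in roots (adjusted p = 0.0479 and 0.0106) and of NRT2.1 between the organs of WT (0.0153). Depth limits NRT1.8, NRT2.2 and NRT2.4 in all groups and NRT2.1 and NRT3.1 in the aerial part.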

Other observations

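For each nitrate gene with a mean of at least 10 CPM, the gene whose profile over the 12 libraries lay closest was sought among 11892 genes, as the root mean square difference of log2 CPM after each gene was centred on its own mean. The nearest gene to NRT1.1 was ACC2, an acetyl-CoA carboxylase, at 0.147, and the nearest to NIR1 was MDAR1, a monodehydroascorbate reductase, at 0.154. For NIA1 it was AT1G55090 at 0.169, for NIA2 PEL3 at 0.208 and for NRT1.5 AT5G44380 at 0.324. None of the 5 nearest genes was itself one of the 10. The libraries of a group and of an organ share their source, so these values describe likeness in this set only.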
